A study of Arabidopsis thaliana with 18 samples.

Results

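Developing seeds of C24 were compared with developing seeds of Col-0 at 10-11 days after flower opening. C24 and Col-0 are natural accessions, that is inbred lines, of Arabidopsis thaliana. The comparison used the 6 arrays of this age, 3 per accession, of 18 in the series, and all 19755 probe sets that were not array controls, of 19766 in the table. Transcript levels were measured on Affymetrix ATH1 arrays and are given as log2 values.

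The series holds both accessions at 8-9, 10-11 and 12-13 days after flower opening, with 3 arrays for each accession and age. For neither accession do the labels name a transgene or treatment, and the plants were grown in long days. Each array came from seeds dissected out of 48 siliques, 8 from each of 6 plants, and each accession had 6 plants in each of 2 experiments. Pools of a group, and the ages of an accession, therefore shared plants, and a p-value here reflects how far pools, not separate plants, varied. Whole seeds were used, so embryo, endosperm and seed coat were measured together. In such samples fewer cells of a type and less RNA per cell cannot be told apart.

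At this age an Arabidopsis seed passes out of the phase of cell division and greening into seed filling. The embryo takes up sugars and amino acids, builds storage proteins and oil, and later makes the late embryogenesis abundant (LEA) proteins that go with drying. Photosynthesis transcripts of the green embryo decline over the same period, and the seed coat lays down flavonoids, mucilage and secondary walls.

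The tissue label was checked with marker genes, of which the annotation named only a part. The 5 named storage protein genes of 13 had a summed level of 15.20 to 15.33 in C24 and 15.14 to 15.17 in Col-0 (log2 of the summed values). BAN, the anthocyanidin reductase of the inner seed coat, lay between 8.12 and 8.86 in the 6 arrays. Only 2 of 13 endosperm markers were named, IKU2 and AGL62. Both had group means below 4.41, the lowest 25th percentile of any array, where a level is not shown to lie above background. Whether endosperm was present cannot be read from these 2 genes. ALC, a regulator of the dehiscence zone of the silique wall, was the only named marker of that tissue and lay at 6.26 to 6.53 in C24 and 6.21 to 6.35 in Col-0. The array medians were 6.06 to 6.11, and arrays correlated at 0.994 to 0.995 within C24, 0.995 to 0.997 within Col-0 and 0.978 to 0.985 between them. Replicate 2 of C24 had the highest 3' over 5' difference of the actin control, 2.28 against 1.39 to 1.54 in the other 5 arrays. Without this array 2967 probe sets were called at 10-11 days, against 3783 with all arrays. Leaving out any 1 of the 6 arrays lowered the count, to between 2759 and 3433. It was lowest without replicate 2 of Col-0, so the fall was not particular to replicate 2 of C24.

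The comparison of the 2 accessions asked which transcripts differ at the same age. Of the 19755 probe sets 3783 (19.1%) differed with an adjusted p under 0.05 in limma, with Benjamini-Hochberg adjustment over all probe sets. In C24 1898 were higher (9.61%) and 1885 lower (9.54%). Most differences were small, with a median size of 0.48 on the log2 scale. At least 2-fold differences numbered 414 (2.1%), with 215 higher (1.09%) and 199 lower (1.01%). Differences of at least 4-fold were found in 75 probe sets, 40 higher and 35 lower, and of at least 8-fold in 21, of which 8 were higher and 13 lower. The values of the 3 arrays did not overlap between accessions in 3685 of the 3783 called probe sets, and in 6855 (34.7%) of all probe sets. Below, a gene is called higher or lower in C24 only if it passed this test. Each difference is C24 minus Col-0 on the log2 scale, with the standard error (SE) of the model and 3 arrays per accession.

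The genes furthest above Col-0 came from several gene families. AT4G29200 had levels of 9.99, 9.80 and 10.08 in C24, against 4.46, 4.14 and 4.30 in Col-0. All 3 C24 arrays lay far above all 3 Col-0 arrays, which were near or below 4.41. The difference was 5.66 ± 0.15 (adjusted p = 2.76e-14, limma). IRX15, a protein needed for normal xylan in secondary cell walls, had levels of 7.71, 8.08 and 7.59 in C24, against 3.65, 3.66 and 3.89 in Col-0. The groups did not overlap, and the difference was 4.06 ± 0.12 (adjusted p = 6.73e-14, limma). Since the Col-0 levels of both genes were not shown to lie above background, their differences can be understated.

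AT1G02300, a cathepsin B-like cysteine protease, had levels of 8.76, 8.83 and 8.55 in C24, against 4.69, 5.00 and 4.93 in Col-0 (difference 3.84 ± 0.11). AT1G48800, a member of the terpene synthase family, had 8.60, 8.34 and 8.33 in C24, against 5.08, 4.52 and 4.84 in Col-0 (3.61 ± 0.13). GSTU26, a tau-class glutathione transferase, had 10.54, 10.54 and 10.36 in C24, against 7.25, 7.13 and 7.24 in Col-0 (3.27 ± 0.11). In each of these 3 genes the C24 arrays lay at least 3 log2 units above every Col-0 array. NRPC2, the second-largest subunit of RNA polymerase III, had 8.67, 8.75 and 8.71 in C24, against 5.70, 5.94 and 5.59 in Col-0 (2.97 ± 0.20, adjusted p = 3.73e-09, limma). AT2G23400, of the cis-prenyltransferase family, had 6.93, 6.98 and 6.56 in C24, against 3.79, 4.03 and 3.79 in Col-0 (2.95 ± 0.15). The Col-0 levels of AT2G23400 were again below 4.41. The other 5 of the 12 highest genes were AT5G15360 (3.94), AT2G15960 (3.08), AT1G64130 (2.71), AT3G55470 (2.63) and AT5G41250, an exostosin-family glycosyltransferase (2.37).

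The lowest genes in C24 included a germin-like protein, an esterase, a pectin methylesterase and a protease inhibitor. AT3G04200, a germin-like protein, had levels of 6.74, 6.79 and 7.54 in C24, against 11.54, 11.71 and 11.74 in Col-0. The groups were far apart, with a difference of -4.64 ± 0.19 (adjusted p = 4.33e-12, limma). AT1G28590, a GDSL-type esterase, had 4.74, 5.00 and 5.41 in C24, against 9.66, 9.80 and 9.66 in Col-0 (-4.66 ± 0.22). AT5G51490, a pectin methylesterase, had 8.05, 8.04 and 8.40 in C24, against 11.84, 11.93 and 11.92 in Col-0 (-3.73 ± 0.11). AT1G17860, a Kunitz-type protease inhibitor, had 6.39, 6.81 and 6.48 in C24, against 9.99, 10.05 and 10.08 in Col-0 (-3.48 ± 0.19). All 4 genes were above 4.41 on each of the 6 arrays. The serine carboxypeptidase-like gene scpl42 had 5.00, 5.14 and 4.75 in C24, against 7.81, 7.89 and 7.88 in Col-0 (-2.90 ± 0.21).

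The remaining 7 of the 12 lowest genes had a C24 mean below 4.41, so that their differences can be understated. AT2G41650 was the lowest of all, with 4.15, 4.09 and 3.93 in C24, against 8.94, 8.94 and 8.70 in Col-0 (-4.81 ± 0.24, adjusted p = 1.14e-10, limma). AT3G19520 (-3.94), AT4G14980 (-3.05), AT1G03710 (-2.90), AT3G19515 (-2.84), AT1G35612 (-2.60) and AT2G23110 (-2.53) followed. The second probe set of AT3G19515 did not pass (-0.35 ± 0.12, adjusted p = 0.0541, limma), and both of its group means, 3.98 in C24 and 4.33 in Col-0, were below 4.41. AT2G23110 belongs to a small family of LEA proteins. Of probe sets with no gene name here, the highest were 256802_at (3.91 ± 0.11) and 263174_at (2.98 ± 0.28), and the lowest 251540_at (-3.92 ± 0.18) and 262726_at (-3.53 ± 0.23).

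**Figure D1:**
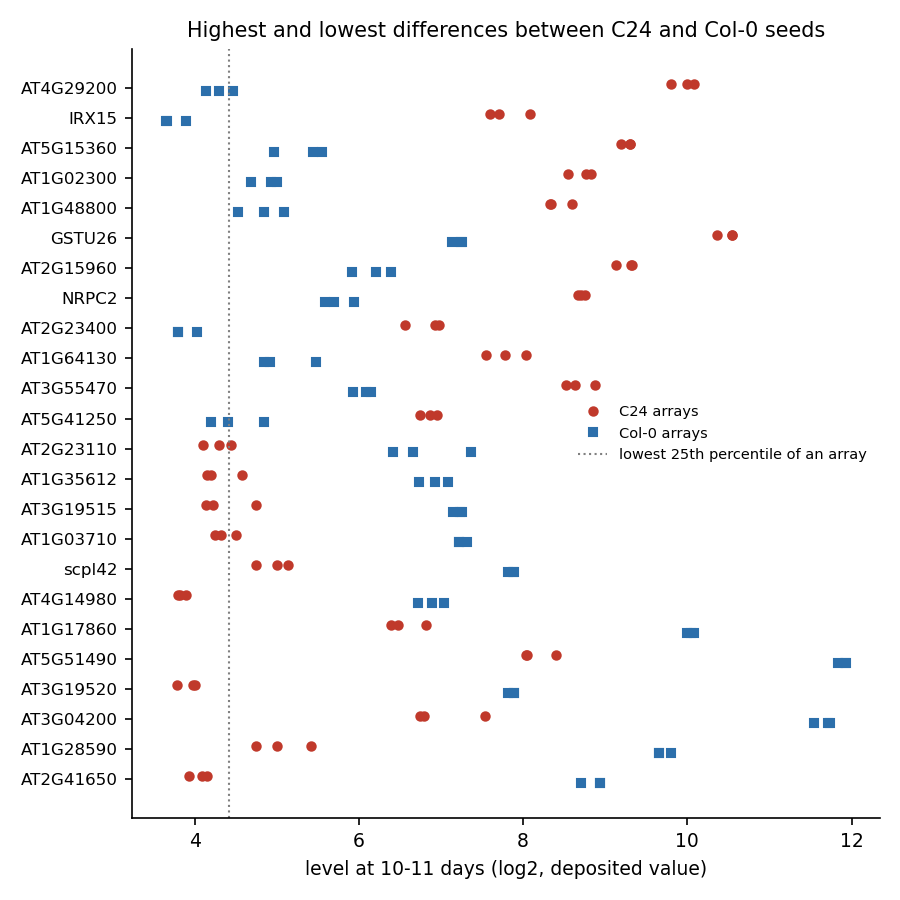
Level at 10-11 days (log2, horizontal axis) of the 12 genes with the highest and the 12 with the lowest difference between C24 and Col-0 seeds, with 1 point per array (circles C24, squares Col-0, 3 arrays each). The points of the accessions do not overlap for any gene shown, and the dotted line marks 4.41, below which a level is not shown to lie above background.

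The called differences were then set against change with age. For this, each probe set was classed by its change between 8-9 and 12-13 days in each accession. The sizes of these changes come from the other 12 arrays and share no array with the differences at 10-11 days. The adjusted p-values of the classes and of the calls at 10-11 days used the same spread, estimated from all 18 arrays. A probe set with little spread passes both more easily, so the classes and the calls are not independent. Of the 4569 probe sets that rose in both accessions, 971 (21.3%) were higher in C24 at 10-11 days and 282 (6.17%) lower, against 9.61% and 9.54% of all probe sets. Of the 4981 that fell in both, 251 (5.04%) were higher and 1007 (20.2%) lower, with 666 lower without replicate 2 of Col-0. Of the 5736 that passed in neither accession, 227 (3.96%) were higher and 206 (3.59%) lower. The share higher in C24 thus exceeded that of all probe sets among rising transcripts, and the share lower exceeded it among falling ones. These shares are descriptions with no test.

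The shares were larger among the probe sets that changed by at least 2 log2 units in both accessions. Of the 434 that rose by this much, 201 (46.3%) were higher in C24 and 22 (5.07%) lower, with a median difference of 0.36, against 0.01 over all probe sets. Of the 396 that fell by this much, 12 (3.03%) were higher and 193 (48.7%) lower, with a median of -0.40. Without replicate 2 of Col-0 these counts were 142 higher and 23 lower among the rising, with a median of 0.27, and 15 higher and 128 lower among the falling, with a median of -0.32. Without replicate 3 of Col-0 they were 217 and 18 among the rising and 6 and 227 among the falling. The 12 higher probe sets among the falling were 5 without replicate 1 of C24, 8 without its replicate 2, and 7 without replicate 1 of Col-0.

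**Figure D2:**
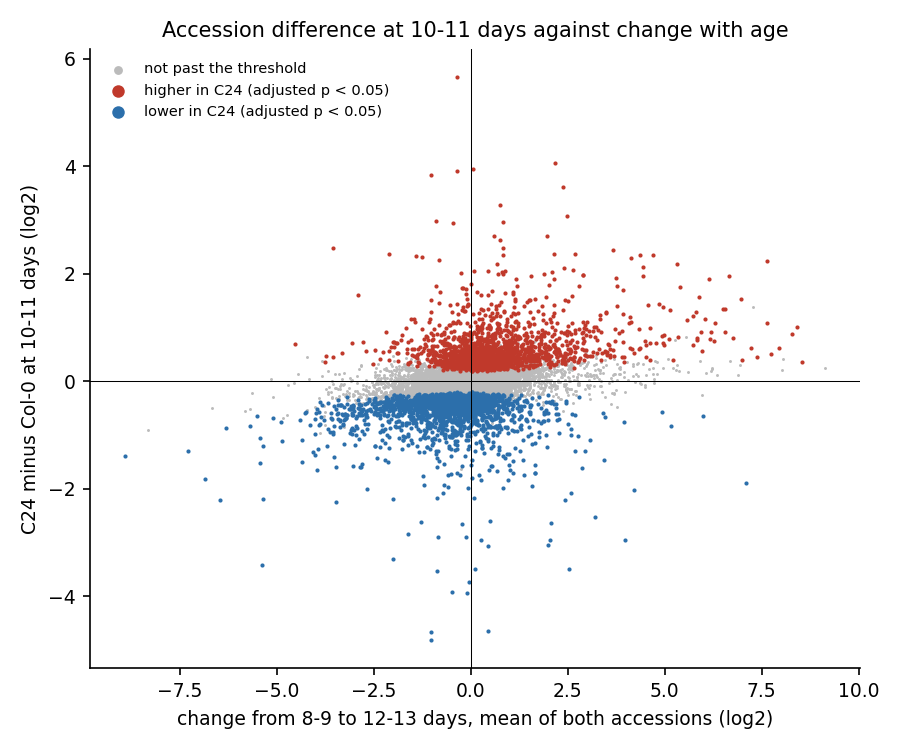
Difference between C24 and Col-0 at 10-11 days (log2, vertical axis) against the change between 8-9 and 12-13 days averaged over both accessions (log2, horizontal axis), with 1 point per probe set (19755). Probe sets higher in C24 with an adjusted p under 0.05 (1898) lie mostly at the right and those lower (1885) mostly at the left among probe sets that change by more than 2 units with age.

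The same 830 probe sets gave each array a place between the other ages. For each probe set the array's value was placed on a scale with 0 at its own accession's mean at 8-9 days and 1 at its own mean at 12-13 days, and the median over probe sets was taken. The C24 arrays lay at 0.703, 0.739 and 0.734, and the Col-0 arrays at 0.618, 0.551 and 0.685. All 3 C24 arrays were nearer to the later age than any Col-0 array, with averages of 0.726 ± 0.019 for C24 and 0.618 ± 0.067 for Col-0 (SD, n = 3). The gap between replicate 1 of C24 and replicate 3 of Col-0 was smaller than the spread among the Col-0 arrays. Rising probe sets gave 0.747 ± 0.012 in C24 and 0.640 ± 0.067 in Col-0, and falling ones 0.703 ± 0.024 in C24 and 0.586 ± 0.066 in Col-0. Siliques of either day of a stage were pooled, and the share of each day in a pool is not given in the sources used here. A difference in that share and a difference between the accessions in seed development cannot be told apart.

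**Figure D3:**
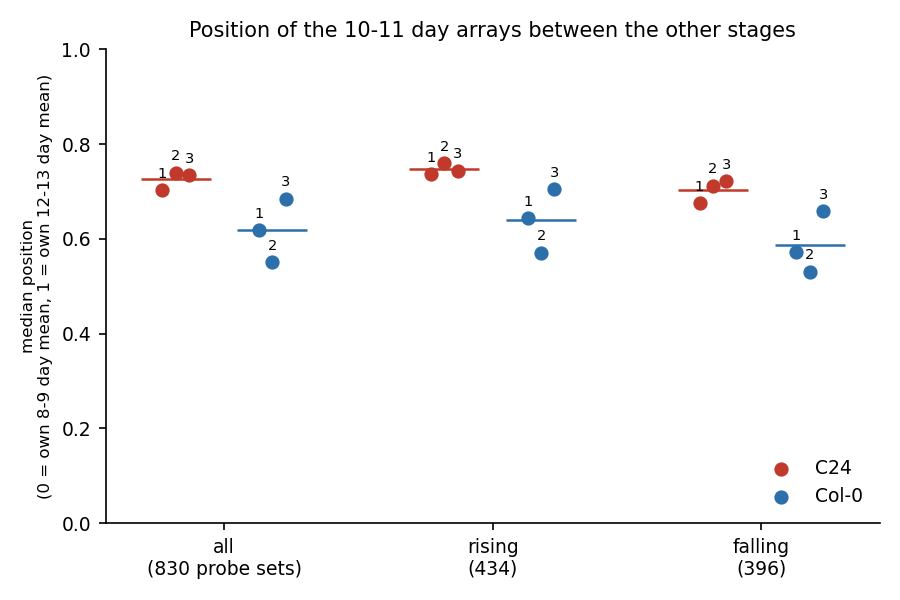
Median position of each 10-11 day array (vertical axis, 0 = own accession's mean at 8-9 days, 1 = own mean at 12-13 days) over 830 probe sets that changed by at least 2 log2 units in both accessions, and over the 434 rising and 396 falling ones, with 1 point per array labelled by replicate number and a bar at the mean. All C24 arrays lie above all Col-0 arrays in each set, and replicate 2 of Col-0 lies lowest in each.

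Whether a difference at 10-11 days departs from the mean of the differences at 8-9 and 12-13 days was tested in the same model. Such a test can pass through 1 other age alone. IRX15 passed it (1.83, adjusted p = 1.32e-06, limma) but not the test against 12-13 days alone (adjusted p = 0.185, limma). The test against the mean passed in 1413 probe sets (7.15%). In 729 (3.69%) the difference at 10-11 days lay above that mean and in 684 (3.46%) below it. These counts depended on single arrays. They were 804 without replicate 1 of Col-0, 815 without its replicate 2 and 874 without replicate 2 of C24, all of this age. Against 8-9 days alone the difference had changed in 1604 probe sets (8.12%), toward C24 in 3.88% and toward Col-0 in 4.24%, and against 12-13 days alone in 1634 (8.27%), toward C24 in 4.59% and toward Col-0 in 3.68%. The last count was 1040 without replicate 2 of Col-0.

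All 6 genes with the highest values of this test rose with age in both accessions and were higher in C24 at 10-11 days. AT3G48450, of the RIN4-like family, had 6.74, 6.87 and 7.02 in C24, against 4.96, 4.65 and 5.10 in Col-0. The groups did not overlap, with a difference of 1.97 ± 0.11 at 10-11 days, beside -0.25 at 8-9 and 0.40 at 12-13 days. Its value in the test was 1.90 ± 0.13 (adjusted p = 1.57e-07, limma). BGLU19, a beta-glucosidase, had 6.79, 7.51 and 6.92 in C24, against 5.74, 4.86 and 5.92 in Col-0. It was higher in C24 at 10-11 days (1.56 ± 0.20) and lower at 12-13 days (-0.99, adjusted p = 0.00144, limma). AT2G18480, a sugar transporter of the major facilitator family, had 8.22, 8.48 and 8.47 in C24, against 6.44, 5.85 and 6.98 in Col-0 (1.97 ± 0.18). Replicate 2 of Col-0 was the lowest array in each of these 3 genes. AT4G19720, a chitinase-like glycosyl hydrolase (2.19), AT1G14930, a Bet v 1-like protein (1.97), and AT3G25855 (1.70) showed the same order, with differences from -0.53 to 0.40 at the other ages, none of which passed.

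Of the 6 genes with the lowest values, EXO and AT5G51950 showed the mirror image, with a fall in both accessions and a gap at 10-11 days. EXO, a brassinosteroid-responsive protein of cell expansion, had 6.23, 5.81 and 5.58 in C24, against 7.94, 7.89 and 7.80 in Col-0. The groups did not overlap, and the difference was -2.00 ± 0.15, beside -0.02 at 8-9 and -0.03 at 12-13 days (value in the test -1.98, adjusted p = 8.49e-06, limma). AT5G51950 had 4.94, 4.38 and 4.80 in C24, against 6.83, 7.28 and 6.56 in Col-0 (-2.18 ± 0.18). AT1G28590 was lower in C24 at all ages and furthest apart at this one (-2.97, -4.66 and -3.24 in order of age).

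The other 3 genes reached low values through another age. AT1G62210 had 12.67, 12.72 and 12.83 in C24, against 12.77, 12.82 and 12.86 in Col-0, and the groups overlapped, while at 8-9 days C24 was 4.30 higher. Its test value of -2.02 (adjusted p = 0.0212, limma) no longer passed without the 10-11 day replicate 2 of C24 (adjusted p = 0.0526), without that of Col-0 (0.0517) or with a trended and robust prior variance (0.0654). LCR67, a plant defensin, had 3.54, 3.62 and 3.52 in C24, against 3.59, 3.57 and 4.41 in Col-0, not above background in either, and was 3.09 higher in C24 at 12-13 days. AT3G27220, a kelch-repeat protein, had 6.06, 7.01 and 6.54 in C24, against 7.09, 7.40 and 7.25 in Col-0 (-0.71 ± 0.22, adjusted p = 0.0309, limma). Its call at 10-11 days was lost when any of 4 arrays was left out, with adjusted p-values of 0.0671 without replicate 3 of C24, 0.173 without replicate 1 of C24, 0.115 without replicate 2 of Col-0 and 0.0684 without replicate 3 of Col-0.

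**Figure D4:**
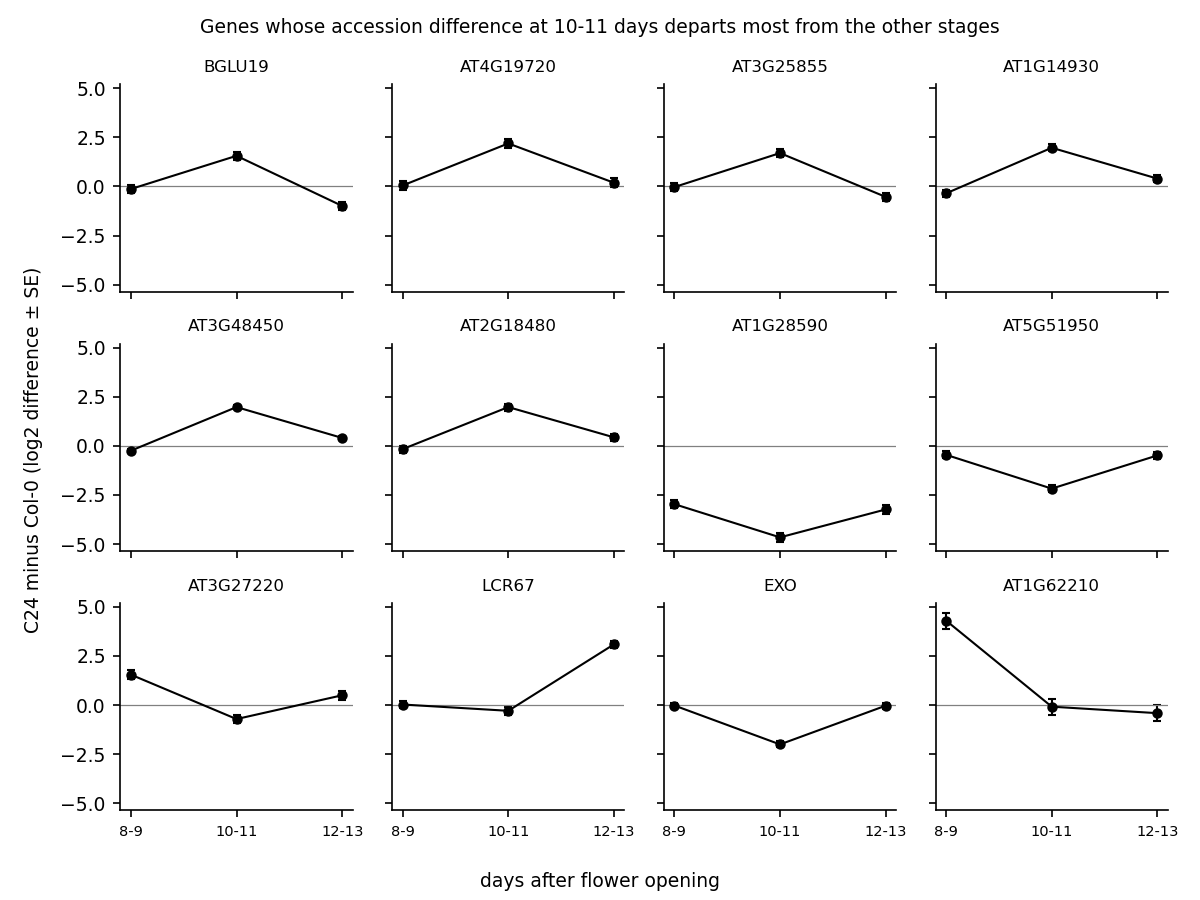
Difference between C24 and Col-0 (log2, vertical axis, with the SE of the model) at 8-9, 10-11 and 12-13 days after flower opening (horizontal axis) for the 6 genes with the highest and the 6 with the lowest test value for 10-11 days against the other ages. In the first 6 panels the difference peaks at 10-11 days, at 1.56 to 2.19, and EXO and AT5G51950 reach their lowest difference there, -2.00 and -2.18.

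At 8-9 days 19.5% of probe sets were called between the accessions, and at 12-13 days 23%. Of the 1898 probe sets higher in C24 at 10-11 days, 533 were higher at both other ages and 124 were lower at another age. A further 651 were called at neither, of which 221 also passed the test against the mean of the other ages in the same direction. Of the 1885 lower, 536 were lower at both other ages and 109 were higher at another. Called at neither were 607, of which 189 also passed that test in the same direction. AT2G43535, a defensin-like protein, was higher in C24 at 8-9 days (2.96) and at 10-11 days (1.57 ± 0.18), with 10.53, 10.26 and 10.49 in C24, against 8.90, 8.42 and 9.24 in Col-0, and was lower at 12-13 days (-1.40). AT3G43960, a papain-like cysteine protease, was lower at 8-9 days (-1.63) and higher at 10-11 days (1.17 ± 0.15), with 7.48, 7.65 and 7.32 in C24, against 6.60, 6.27 and 6.08 in Col-0. The differences across all 19755 probe sets correlated between 10-11 and 8-9 days at r = 0.526 (Spearman 0.365) and between 10-11 and 12-13 days at r = 0.619 (Spearman 0.378). These are descriptions across probe sets, from arrays of different pools that share plants.

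Some large differences stood in genes that did not pass for change with age in either accession. AT5G15360 had 9.19, 9.30 and 9.30 in C24, against 4.97, 5.44 and 5.55 in Col-0 (3.94 ± 0.19). AT5G24240, a phosphatidylinositol 4-kinase family member, had 8.19, 8.08 and 8.46 in C24, against 5.96, 6.06 and 6.56 in Col-0 (2.05 ± 0.13). TET11, a tetraspanin of the plasma membrane, had 5.34, 5.53 and 5.59 in C24, against 7.61, 7.46 and 7.37 in Col-0 (-1.99 ± 0.12). GIS, a zinc-finger regulator of trichome formation, had 5.54, 5.22 and 6.0 in C24, against 7.28, 7.32 and 7.39 in Col-0 (-1.74 ± 0.15). The accessions did not overlap in any of the 4, and each was called in the same direction at the other ages too.

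Gene lists were then read one by one, with members counted against the 9.61% of probe sets higher and 9.54% lower in C24. Only members named in the annotation could be counted, such as 7 of 21 chlorophyll synthesis genes and 3 of 18 Calvin cycle genes sought. The counts therefore do not describe whole pathways. In the list of light harvesting and photosystems, 6 of 9 members were lower in C24 and none higher, with a median difference of -0.35, against 0.01 over all probe sets. LHCB4.2, a minor light-harvesting protein of photosystem II, had 9.35, 9.23 and 9.38 in C24, against 9.92, 10.04 and 9.83 in Col-0. The groups did not overlap, and the difference was -0.61 ± 0.12 (adjusted p = 0.0014, limma). LHCB4.1, its close relative, had 10.46, 10.57 and 10.51 in C24, against 11.13, 11.30 and 10.84 in Col-0 (-0.58 ± 0.11). PSAN (-0.55) and PSAE-1 (-0.43), subunits of photosystem I, PSBW (-0.35), a subunit of photosystem II, and LPA19 (-0.34), an assembly factor of photosystem II, were lower as well. PSB27 (-0.14), PSBY (0.04) and LHCB4.3 (0.11) did not pass. Leaving out replicate 1 or 2 of Col-0, or replicate 2 of C24, left 5 of the 9 lower.

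Chlorophyll synthesis had 3 of 7 named members lower and none higher, with a median of -0.20. HEMB1, which makes porphobilinogen, had 7.71, 7.73 and 7.71 in C24, against 8.45, 8.65 and 8.39 in Col-0 (-0.78 ± 0.08, adjusted p = 1.9e-06, limma). HEME2, uroporphyrinogen decarboxylase, had 7.02, 7.0 and 6.60 in C24, against 7.63, 7.79 and 7.31 in Col-0 (-0.70 ± 0.12). CHLM, the methyltransferase of magnesium protoporphyrin, was lower by -0.52 ± 0.11. PORB, protochlorophyllide reductase, had -0.20 and GSA1 0.12, and neither passed. None of the 3 named Calvin cycle genes passed, with PRK at -0.21, RCA, rubisco activase, at -0.20 and SBPASE at -0.11. Without replicate 1 of C24 1 of them was lower.

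Starch metabolism had 2 of 4 members lower. APL3, a large subunit of ADP-glucose pyrophosphorylase, had 5.42, 5.35 and 5.77 in C24, against 6.43, 6.12 and 6.18 in Col-0 (-0.73 ± 0.13). SBE2.2, a starch branching enzyme, was lower by -0.46 ± 0.11. DPE1 (-0.19) and APL4 (-0.28) did not pass. Fatty acid synthesis had 2 of 5 members lower, of which AT5G10160, a hydroxyacyl-ACP dehydratase, had 9.90, 9.73 and 9.80 in C24, against 10.31, 10.39 and 10.22 in Col-0 (-0.50 ± 0.08). The other, AT2G22230 (-0.23), lost its call without replicate 2 or 3 of C24 or replicate 2 of Col-0.

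Cell division had 2 of 5 named members lower, AUR1 and AUR2, the Aurora kinases of mitosis. AUR1 had 5.22, 5.27 and 5.58 in C24, against 6.27, 6.45 and 5.79 in Col-0, with no overlap (-0.82 ± 0.14, adjusted p = 0.00027, limma). AUR2 was lower by -0.30 ± 0.09 and lost its call without any of 4 arrays, with adjusted p-values of 0.0845 without replicate 1 of C24, 0.0609 without its replicate 3, 0.0803 without replicate 1 of Col-0 and 0.0771 without its replicate 2. PRL, a subunit of the MCM helicase, had -0.54 ± 0.18 (adjusted p = 0.0505, limma), AUR3 -0.25 and BUBR1 -0.04. The count of lower members was 1 to 4 over the alternative settings, 1 without replicate 1 or 3 of C24 or replicate 1 or 2 of Col-0, and 4 without replicate 3 of Col-0 or after a second quantile normalization. PRL passed in 6 of 13 alternative settings, with adjusted p-values of 0.0222 to 0.0464. Among 5 histone genes the H2B gene HTB4 was lower (-0.43 ± 0.07) and the H2B gene HTB1 higher (0.53 ± 0.11), and 2 were lower without replicate 1 of C24 or replicate 3 of Col-0.

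Storage protein and LEA genes were counted separately. None of the 5 named storage protein genes passed, with a median of 0.11. The cupin AT1G03890 had 13.61, 13.50 and 13.54 in C24, against 13.44, 13.38 and 13.39 in Col-0 (0.15 ± 0.36), and PAP85, a vicilin-like protein, had 13.31, 13.11 and 13.26 in C24, against 13.24, 13.26 and 13.29 in Col-0. Both lay near the array maxima of 14.09 to 14.33, where a difference can be understated. The SE of AT1G03890 rests on all 18 arrays and is wider than the scatter of the 6 arrays shown. In the fit to the 6 arrays alone none of the 5 storage protein genes passed either. Of the 23 genes of the LEA list 3 were higher and 1 lower, with a median of 0.03. AT2G23110 (-2.53), described above, was not on that list and is not in this count. COR47, a dehydrin, had 6.69, 6.76 and 6.74 in C24, against 7.96, 8.11 and 8.03 in Col-0 (-1.31 ± 0.11, adjusted p = 1.42e-07, limma). LEA18 had 7.08, 7.12 and 7.35 in C24, against 6.51, 6.56 and 6.57 in Col-0 (0.64 ± 0.14). AT2G18340 (0.61) was higher too, with a Col-0 mean below 4.41. The call of the other higher gene, AT1G72100 (0.55), was lost without replicate 2 of Col-0 (adjusted p = 0.114) or replicate 1 of C24 (adjusted p = 0.0774). The maturation factors EEL (0.10) and BZIP53 (-0.08) did not pass.

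Autophagy genes had 3 of 10 members higher and none lower, with a median of 0.21. All 3 encode ATG8, the ubiquitin-like protein of the autophagosome membrane. ATG8E had 8.45, 8.73 and 8.81 in C24, against 8.00, 7.77 and 8.16 in Col-0 (0.68 ± 0.14). ATG8D had 10.26, 10.58 and 10.24 in C24, against 9.72, 9.68 and 9.75 in Col-0 (0.64 ± 0.10). ATG8C had 11.30, 11.26 and 11.41 in C24, against 10.88, 10.79 and 10.90 in Col-0 (0.47 ± 0.07). The accessions did not overlap in these 3, while ATG8F (0.08) and APG8H (-0.06) did not pass.

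**Figure D5:**
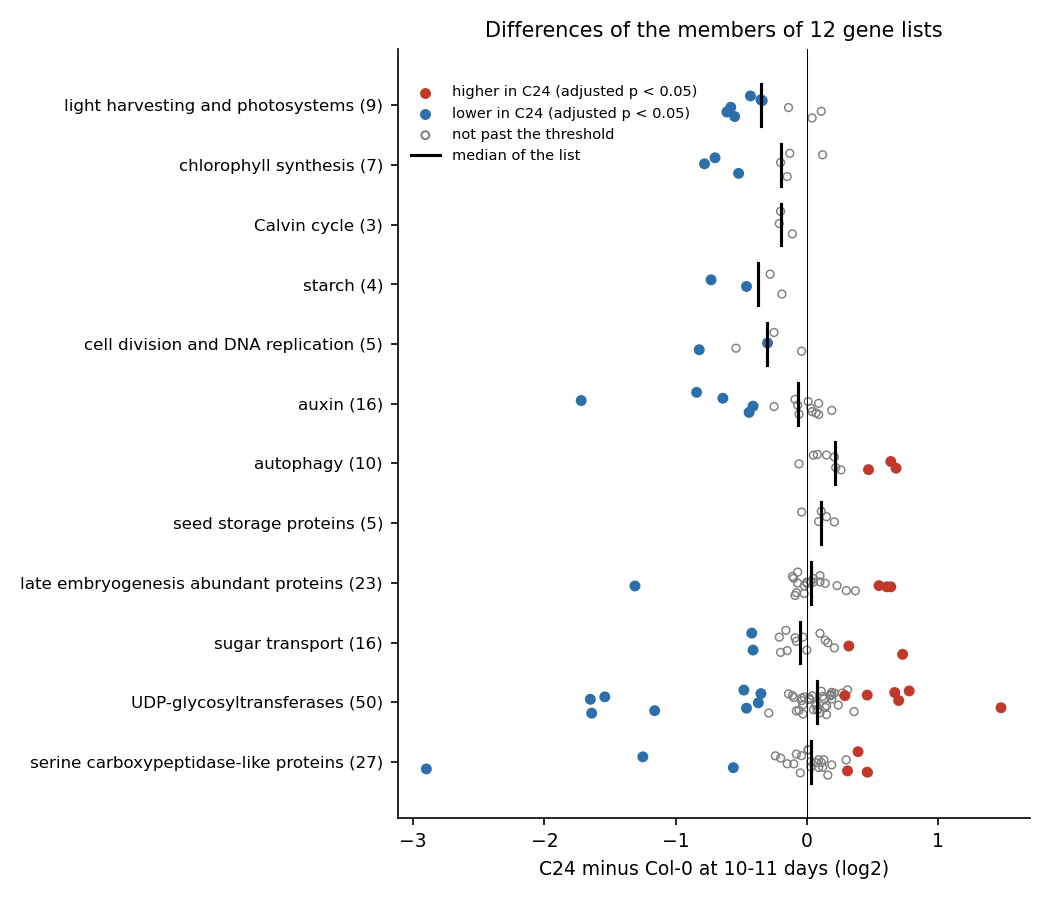
Difference between C24 and Col-0 at 10-11 days (log2, horizontal axis) of the members of 12 gene lists, with 1 point per probe set, filled where the adjusted p was under 0.05, and a bar at the median of each list (members in parentheses). The photosystem list has 6 of 9 members lower and a median of -0.35, and the autophagy list 3 of 10 higher and a median of 0.21.

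Of 16 auxin genes 5 were lower and none higher, with a median of -0.07. GH3.3, an enzyme that conjugates auxin to amino acids, had 5.93, 6.15 and 5.64 in C24, against 7.64, 7.96 and 7.30 in Col-0 (-1.72 ± 0.21, adjusted p = 7.66e-06, limma). GH3.9, of the same family, had 11.27, 11.28 and 11.18 in C24, against 12.10, 12.20 and 11.95 in Col-0 (-0.84 ± 0.11). IAA30, of the Aux/IAA repressor family, was lower by -0.64 ± 0.08. The count was 3 to 5 over the alternative settings, with 3 without replicate 1 of C24. UGT84B1, a glucosyltransferase that acts on auxin, was also lower, with 4.63, 4.58 and 4.79 in C24, against 6.40, 6.59 and 5.64 in Col-0 (-1.54 ± 0.17).

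The family of UDP-glycosyltransferases, which attach sugars to hormones and secondary metabolites, was divided, with 6 of 50 higher, 8 lower and a median of 0.08. UGT88A1 had 5.34, 5.99 and 5.38 in C24, against 7.28, 7.41 and 6.96 in Col-0 (-1.65 ± 0.18). UGT87A2 had 4.25, 4.51 and 4.54 in C24, against 5.99, 5.99 and 6.25 in Col-0 (-1.64 ± 0.17). UGT85A7 had 7.17, 7.38 and 7.10 in C24, against 5.66, 5.59 and 5.96 in Col-0 (1.48 ± 0.10). Of 27 serine carboxypeptidase-like genes 3 were higher and 3 lower, of 13 glutathione transferases 2 and 1, and of 22 cytochromes P450 1 and 2. The lower gene scpl25 (-0.56) lost its call without any single array other than replicate 3 of Col-0, and in the fit to the 6 arrays alone. Of the glutathione transferases 1 was higher without replicate 1 of C24 or replicate 2 or 3 of Col-0, and 2 were lower without replicate 2 of C24. CYP78A9, which promotes fruit and seed growth, had 8.58, 8.87 and 8.97 in C24, against 10.77, 10.26 and 11.08 in Col-0 (-1.90 ± 0.15, adjusted p = 2.92e-08, limma). Its difference was 0.59 at 8-9 and -1.63 at 12-13 days, and its test value for 10-11 days against the other ages was -1.38 (adjusted p = 0.000138, limma).

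In the glucosinolate list AT2G25450, a dioxygenase that hydroxylates the side chain, had 8.98, 8.68 and 9.06 in C24, against 11.00, 11.17 and 11.12 in Col-0 (-2.19 ± 0.13, adjusted p = 7.37e-10, limma). BCAT4, of methionine chain elongation, had 9.36, 9.69 and 9.44 in C24, against 8.71, 8.87 and 8.70 in Col-0 (0.74 ± 0.16). The other 2 named members, AOP3 (-0.11) and AOP1 (-0.36), did not pass, and 2 members were lower in the fit to the 6 arrays alone. Of 12 transporters of nitrate and amino acids 2 were higher, NRT2.5, a high-affinity nitrate transporter, with 5.66, 5.47 and 5.40 in C24, against 4.75, 4.70 and 4.59 in Col-0 (0.83 ± 0.11), and AT1G27040 (0.46 ± 0.08). In the fit to the 6 arrays alone 4 were higher, and without replicate 3 of Col-0 1 was lower. Of 16 sugar transporters 2 were higher and 2 lower, and the counts over the alternative settings were 1 to 2 and 0 to 3. The higher count was 1 without any single C24 array or without replicate 3 of Col-0. The lower count was 0 without replicate 2 of C24 or replicate 1 of Col-0, and 1 without replicate 1 of C24 or replicate 3 of Col-0. SWEET4 had 6.49, 5.87 and 6.27 in C24, against 5.14, 5.60 and 5.69 in Col-0 (0.73 ± 0.18). SWEET11 (-0.16) and SAG29 (0.00), also known as SWEET15, which export sucrose toward the embryo, did not pass.

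Of 10 genes in the list of cellulose and secondary walls 3 were higher and 1 lower. The list also took in glucan synthases of xyloglucan, so these counts do not describe cellulose or secondary walls alone. Beside IRX15, its relative IRX15-L had 6.01, 6.41 and 6.35 in C24, against 5.79, 5.59 and 5.79 in Col-0 (0.53 ± 0.10), with -0.03 at both other ages. CSLC04, a glucan synthase of xyloglucan, had 5.77, 5.65 and 5.61 in C24, against 6.85, 6.75 and 6.69 in Col-0 (-1.09 ± 0.10). Its family did not share this direction. CSLC5 was higher in C24, by 0.46 to 0.59 over the alternative settings, and CSLC6 (0.02 to 0.12) did not pass. IRX15 differed by 0.01 at 8-9 days and by 4.45 at 12-13 days. It rose by 4.39 between these ages in C24, against -0.05 in Col-0, where it stayed below 4.41. In the separate list of 7 peroxidases 1 was higher and 1 lower, with a median of 0.08 and 0 to 1 lower over the alternative settings. The higher one, PRX52, a peroxidase of lignin formation, had 6.14, 6.33 and 6.58 in C24, against 5.36, 5.09 and 5.26 in Col-0 (1.11 ± 0.14). Of 27 expansin and xyloglucan endotransglucosylase genes 2 were higher and 5 lower, with 1 to 2 higher and 1 to 5 lower over the alternative settings. Of 37 MADS-box genes 3 were higher and 1 lower. The lower one, AGL16 (-0.40), lost its call in 7 of 13 alternative settings, among them the replicate block (adjusted p = 0.0516) and the fits without replicate 1 or 2 of C24 or replicate 1 or 3 of Col-0 (0.068 to 0.236). AGL19, known as a promoter of flowering, had 5.90, 5.62 and 5.89 in C24, against 3.77, 3.75 and 3.82 in Col-0, below 4.41 (2.03 ± 0.10, adjusted p = 3.65e-11, limma). AGL18 was higher by 0.43 ± 0.10.

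Few members of the seed coat lists were named, and their calls were unstable. Named were 4 of 17 mucilage, 3 of 19 flavonoid and 1 of 11 suberin and cutin genes. Of 4 mucilage genes 2 were lower. AT3G50990 (-0.53) lost its call without replicate 1 or 2 of C24 or replicate 1 or 3 of Col-0, and AT2G22900 (-0.39) without replicate 3 of C24 or replicate 2 of Col-0. The summed level of the 4 was 11.27 to 11.44 in C24 and 11.54 to 11.86 in Col-0. Of 3 flavonoid genes 1 was higher, and none without replicate 1 or 2 of either accession. Without replicate 2 of C24 or replicate 3 of Col-0 1 was lower. Their summed level of 9.54 to 9.69 in C24 and 9.60 to 9.94 in Col-0 overlapped. FACT, an acyltransferase of the suberin list, had 6.18, 7.95 and 8.81 in C24, against 7.09, 5.38 and 5.86 in Col-0. The groups overlapped and the arrays were widely scattered (1.54 ± 0.45, adjusted p = 0.0217, limma), and the call was lost without replicate 2 or 3 of either accession. It was also lost in the fit to the 6 arrays alone (adjusted p = 0.121, limma) and with a trended and robust prior variance (0.0689). Whether a change in the share of seed coat takes part in the other differences was not tested.

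Called genes lay on all 5 chromosomes, with 17.7% to 19.6% of the measured genes called on each. Of 1001 measured neighbours of higher genes 120 (12.0%) were higher, against 9.4% of all 11400 genes. Of 1011 neighbours of lower genes 126 (12.5%) were lower, against 9.2%. These were 60 and 63 adjacent pairs, each counted from both sides. Called the other way were 8.2% of the neighbours of higher genes and 8.1% of those of lower genes. AT3G19515 and AT3G19520, both among the 12 lowest genes, are an example of such a pair.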

How the data were processed

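The authors deposited 1 table of log2 values for the series, with a level for each probe set and array. Per the labels, only ATH1 probes identical in both genomes and matching a TAIR10 gene model were kept, with at least 3 probes per probe set, and TAIR10 is the build in the submitters' processing notes. How they normalized the arrays, summarised probes and hybridised in batches is not given in the sources used here. Batches could therefore not be tested. The table was used as deposited, without a filter on low values, and 11 control probe sets were left out. For arrays, their number limits the precision.

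Group means were fitted over the 18 arrays by limma 3.58.1 in R 4.3.3 (lmFit and eBayes, 12 residual and 5.8 prior degrees of freedom). The contrasts were C24 minus Col-0 at 10-11 days, the same at the other ages, and the interactions of 10-11 days with them. P-values were adjusted by Benjamini-Hochberg over 19755 probe sets, with a threshold of 0.05. The smallest p that exact permutation of 3 arrays against 3 allows is 0.1, and the adjusted p of limma was used instead. The fit was tested on simulated data.

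In the platform annotation 11763 probe sets had 1 gene and 61 had several, and 7931 are unnamed here. RefSeq (TAIR10.1) held 11718 of the 11763 and was used for names and neighbours only. The comparison, its members and the 40 gene lists were chosen with earlier results of these data known. The lists were matched by locus or by a pattern on symbols, 27 had 3 or more probe sets and 6 had none. Named genes followed a rule: the 12 highest and 12 lowest differences with no overlap of arrays, the 6 highest and 6 lowest interactions, 4 genes with opposite signs at different ages, up to 4 called and 2 uncalled members of each list, and the 3 highest and 3 lowest among genes not changing with age. Other members given by their difference alone were taken from the lists after their values were seen. A planned description of promoter motifs was not run, and no sequences are shown.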

Additional observations from a re-analysis of the deposited data

Results flagged for a closer look

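The difference between C24 and Col-0 at 10-11 days differed from the mean of the differences at 8-9 and 12-13 days, by the interaction test in limma with an adjusted p under 0.05, in 40 of the 168 named probe sets, beside 7.15% of all probe sets. The named genes were partly chosen by this value, so the count is no evidence of its own. Positive values mean a difference further toward C24 at 10-11 days than the mean of the differences at the other ages. The difference at 1 of those ages can still be larger, as for IRX15 at 12-13 days (4.45, against 4.06 at 10-11 days).

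Among the genes with the highest differences the values were 1.83 for IRX15, 1.22 for AT1G48800, 1.10 for GSTU26, 1.32 for AT2G23400, 0.72 for AT3G55470 and -1.05 for AT5G41250. Among those with the lowest differences they were -1.55 for AT1G28590, -1.26 for AT3G04200, -0.73 for AT5G51490 and -0.91 for AT4G14980. The genes named for a high value had 2.12 (BGLU19), 2.07 (AT4G19720), 1.98 (AT3G25855), 1.94 (AT1G14930), 1.90 (AT3G48450) and 1.84 (AT2G18480). Those named for a low value had -2.02 (AT1G62210), -1.98 (EXO), -1.85 (LCR67), -1.74 (AT3G27220) and -1.71 (AT5G51950). That of AT1G62210 (adjusted p = 0.0212) did not pass the threshold without the 10-11 day replicate 2 of C24 (0.0526), without that of Col-0 (0.0517) or with a trended and robust prior variance (0.0654). The value of AT1G62210 was carried by 8-9 days and that of LCR67 by 12-13 days.

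Genes called with opposite signs at different ages had 0.79 for AT2G43535, 1.64 for AT3G43960 and -1.23 for XTH16, a xyloglucan endotransglucosylase. The call of XTH16 at 10-11 days (-0.85) was lost without replicate 3 of C24 (-0.64, adjusted p = 0.0753, limma). Among the list members positive values were found for UF3GT (0.64), UGT85A7 (0.63), CYP71B34 (0.56), IRX15-L (0.56), CSLD2 (0.48), AGL19 (0.41), AT1G30260 (0.68) and NRT2.5 (0.56). Negative values were found for COR47 (-0.49), AT5G10160 (-0.35), BZIP53 (-0.41), IAA30 (-0.35), AtVEX1 (-0.66), GSTU20 (-0.40), UGT88A1 (-1.03) and CYP78A9 (-1.38).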

How the results depend on the processing

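The count for C24 minus Col-0 at 10-11 days was 3783 and ranged from 3546 to 3804 under another quantile normalization, centring on array medians, leaving out the dimmest 30% of probe sets, a trended and robust prior, added control probe sets and a fit to the 6 arrays alone. Centring moved the split to 1999 higher and 1759 lower. With a 2-fold minimum it was 414 (215 higher, 199 lower). Leaving out 1 array gave 2759 to 3433 in all, 1399 to 1765 higher and 1360 to 1754 lower, fewest without replicate 2 of Col-0. Replicate numbers were not treated as pairs. Same-numbered deviations of the 2 accessions at this age correlated at 0.1, -0.103 and 0.061, and other-numbered ones at -0.244 to 0.171. These few values, from deviations that depend on each other within a group, cannot exclude pairing. With the replicate number as a block the count was 3767.

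For 10-11 days against the mean of the other ages, leaving out 1 array gave 804 to 1607 in all, 438 to 835 higher and 361 to 772 lower. Against 8-9 days it gave 1095 to 1695 in all, 549 to 777 higher and 546 to 923 lower. Against 12-13 days it gave 1040 to 1767 in all, 601 to 962 higher and 439 to 805 lower. The low counts have fewer samples, and other causes were not tested. The position stayed between 0.719 and 0.740 in C24 and between 0.584 and 0.651 in Col-0 over all its alternatives.

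Of the 105 named probe sets called at 10-11 days, 83 kept their call in every alternative and 22 lost it in at least 1, and none of the 105 changed sign. Of 63 not called, 53 stayed so. Only uncalled genes near 0 changed sign, and the cause was not tested. A second quantile normalization gave 0.03 for PAP85 and -0.02 for AT3G01570, and centring 0.01 for SAG29. Leaving out 1 array gave -0.08 to 0.02 for PAP85, -0.12 to 0.09 for AT3G02480, -0.05 to 0.08 for FaTA, -0.01 to 0.11 for PSBY, -0.14 to 0.05 for BUBR1, -0.26 to 0.05 for BAN, -0.12 to 0.01 for AGL62, -0.00 to 0.14 for GID1C, -0.08 to 0.02 for GID1B, -0.06 to 0.04 for IAA18, -0.03 to 0.03 for SAG29, -0.25 to 0.00 for scpl35, -0.09 to 0.13 for EXPA15, -0.02 to 0.20 for AGL67 and -0.01 to 0.13 for NAC014.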
